A study of Mus musculus with 9 samples.

Results

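The genes described are 10 genes of the germline and of meiosis: Dazl, Stra8, Rec114, Hormad1, Sycp1, Sycp3, Mael, Ddx4, Piwil2 and Dppa3. They are the rows of a mouse RNA-seq expression table whose gene name equals one of these symbols, 10 of 24044 named rows, and each symbol stands on 1 row. The RNA came from mouse embryonic stem (ES) cells, pluripotent cells of the early embryo that are not germ cells. Established lines named E14, v6.5 and Oct4 GiP were each grown on gelatin for 2 weeks in 3 conditions called Serum, 2i and Paused, at passages 20 to 23. Oct4 GiP cells carry a reporter driven by regulatory sequence of the pluripotency gene Oct4. Paused cells were grown with INK128, which blocks the mTor kinase, at 200 nM throughout the 2 weeks, and no inhibitor is named for Serum. As a name, 2i commonly means medium that blocks MEK and GSK3, but the labels do not list what it held. Each line gave 1 library per condition, so there were 9 libraries, 3 for each condition, and ERCC spike-in RNA was added to all of them.

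Meiosis is the division that reduces the chromosome set of germ cells. Retinoic acid and Dazl, an RNA-binding protein that licenses germ cells for sexual development, lead to expression of Stra8, which switches on the meiotic programme. Chromosomes then form protein axes carrying Hormad1 and Sycp3, Rec114 takes part in making the DNA breaks that start recombination, and Sycp1 zips the paired axes together. Ddx4, Mael and Piwil2 work in the germ granule and in the piRNA pathway, which silences transposons, and Dppa3 (also called Stella) marks primordial germ cells and protects the maternal genome of the zygote from demethylation. In cells outside the germline many of these genes are kept silent by DNA methylation of their promoters and by repressor complexes that hold MGA and MAX at E-boxes and E2F6 at E2F sites. ES cells in 2i are known for low DNA methylation.

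Values are FPKM, fragment counts scaled to transcript length and library size, as the authors deposited them, and values for 3 libraries are given in the order E14, v6.5 and Oct4 GiP. The 12711 named rows that reached an FPKM of 1 in 3 or more libraries were tested, among them all 10 genes. A log2 fold change is a difference in log2(FPKM + 1) from limma-trend with the line as a block, given ± its standard error, and a gene was called at a Benjamini-Hochberg adjusted p under 0.05 over all 12711 genes. The line is the replicate, with 1 culture per line and condition. Each p-value sets a difference against the spread left between the 3 lines once line and condition were fitted. That spread was pooled over all 9 libraries and drawn towards that of genes of similar level. The libraries of the third condition therefore enter every comparison. The comparisons share libraries in pairs and are not independent. The authors also deposited each FPKM value multiplied by 1 constant per library, which averaged 3.59 ± 0.17 for Serum libraries, 2.80 ± 0.36 for those of 2i and 1.88 ± 0.095 for Paused ones (SD, n = 3). In those columns the median tested gene differed by -0.88 for Paused against Serum, -0.33 for 2i against Serum and -0.56 for Paused against 2i, and the changes given are those of FPKM, so each is measured against that shift. In bulk RNA, fewer cells that express a gene and less of its RNA per cell cannot be told apart. Read counts were not used here, and the depth behind each value is unknown.

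The promoters of these genes were read first, because the repressors named above act through short motifs there. RefSeq promoter sequences of assembly GRCm38.p6, 250 bases before to 50 after the start, matched 8 of the 10 genes, all but Dppa3 and Piwil2. The E-box CACGTG, which reads the same on both strands, was present in 6 of the 8, against 7.24% of all 27025 mouse promoters of that length and 10.6% of the 9168 promoters of tested genes. Each copy is printed below with 10 bases on either side and the E-box in capitals, to show the sites beside genes that differ in their response to 2i.
Rec114, chr9:58741563-58741588, minus strand: cgtcagctatCACGTGgaggcgggct
Hormad1, first site, chr3:95559610-95559635, plus strand: aagggtgcgcCACGTGccagtgacag
Hormad1, second site, chr3:95559647-95559672, plus strand: gcgcactgcgCACGTGctgaccggag
Sycp1, chr3:102936179-102936204, minus strand: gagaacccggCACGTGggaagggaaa
Sycp3, first site, chr10:88459513-88459538, plus strand: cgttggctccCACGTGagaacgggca
Sycp3, second site, chr10:88459534-88459559, plus strand: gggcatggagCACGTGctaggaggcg
Mael, chr1:166238952-166238977, minus strand: ccaggcctacCACGTGacaatccccg
Ddx4, chr13:112652324-112652349, minus strand: cgtccgcccgCACGTGcagccgttta
The E-box itself ended 13 bases before the start in Rec114, 14 in the second site of Hormad1 and 23 in Ddx4. It was farthest from the start in Mael, at 217 bases. Distances are to the start of the RefSeq promoter sequence, here called the RefSeq start. For Rec114, Ddx4 and Stra8 that start lies inside the GENCODE span of the gene given further on, as it does by 18 bases or fewer for Dazl, Sycp3 and Mael. All 250 bases before the RefSeq start of Stra8 and 165 of the 250 of Ddx4, its E-box among them, are annotated as exon of the gene itself. The 250 bases of Rec114 hold no annotated exon but lie wholly inside its GENCODE span, and its RefSeq span reaches farther, to base 58822706. The RefSeq spans of Stra8 and Ddx4 also begin before the start used here, at bases 34920163 and 112652633. For Stra8 and Rec114 the window therefore does not show the sequence before the GENCODE start, and for Ddx4 it shows only a part. Dazl and Stra8 held no CACGTG in this window. The E2F core TCCCGC, searched on both strands (GCGGGA), was also present in 6 of the 8, again all but Dazl and Stra8, against 20.0% of all promoters and 37.1% of those of tested genes. No copy of one motif overlapped a copy of the other. A match is a description of the letters and shows neither binding nor repression, and neither was measured in these samples.

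CpG dinucleotides, the bases that carry DNA methylation, were counted in the same 300 bases, and each CACGTG holds 1 of them. The 8 promoters held a median of 22.5 CpG against 7 over all promoters, those of untested genes included. No median was taken over promoters of tested genes alone. Counts ran from 12 in Rec114 and 15 in Sycp3 to 28 in Dazl, with 10 in the largely exonic window of Stra8 and 38 in that of Ddx4. The upstream parts of the windows of Dazl, with many CpG, and of Rec114, with fewer, are printed with each CpG in capitals. Both genes were higher in 2i than in Serum in every line. The Rec114 stretch lies inside the GENCODE span of the gene, so it is not the sequence before the GENCODE start. Of the 250 bases before the Dazl start, 16 annotated as exon are left out.
Dazl, chr17:50293637-50293870, minus strand: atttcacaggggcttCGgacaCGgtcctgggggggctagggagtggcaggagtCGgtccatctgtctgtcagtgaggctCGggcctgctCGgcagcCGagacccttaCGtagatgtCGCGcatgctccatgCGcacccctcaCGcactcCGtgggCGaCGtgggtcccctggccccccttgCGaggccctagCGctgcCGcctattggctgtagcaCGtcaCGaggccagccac
Rec114, chr9:58741560-58741809, minus strand: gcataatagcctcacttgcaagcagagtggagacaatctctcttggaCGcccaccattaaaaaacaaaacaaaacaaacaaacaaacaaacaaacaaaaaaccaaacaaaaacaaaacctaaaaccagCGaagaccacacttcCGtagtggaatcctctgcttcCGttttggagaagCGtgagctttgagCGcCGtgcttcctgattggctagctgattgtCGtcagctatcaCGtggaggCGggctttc
The Dazl stretch of 234 bases held 19 CpG and the Rec114 stretch of 250 bases held 10. Methylation of these sites was not measured, so its part in the results was not tested.

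**Figure D1:**
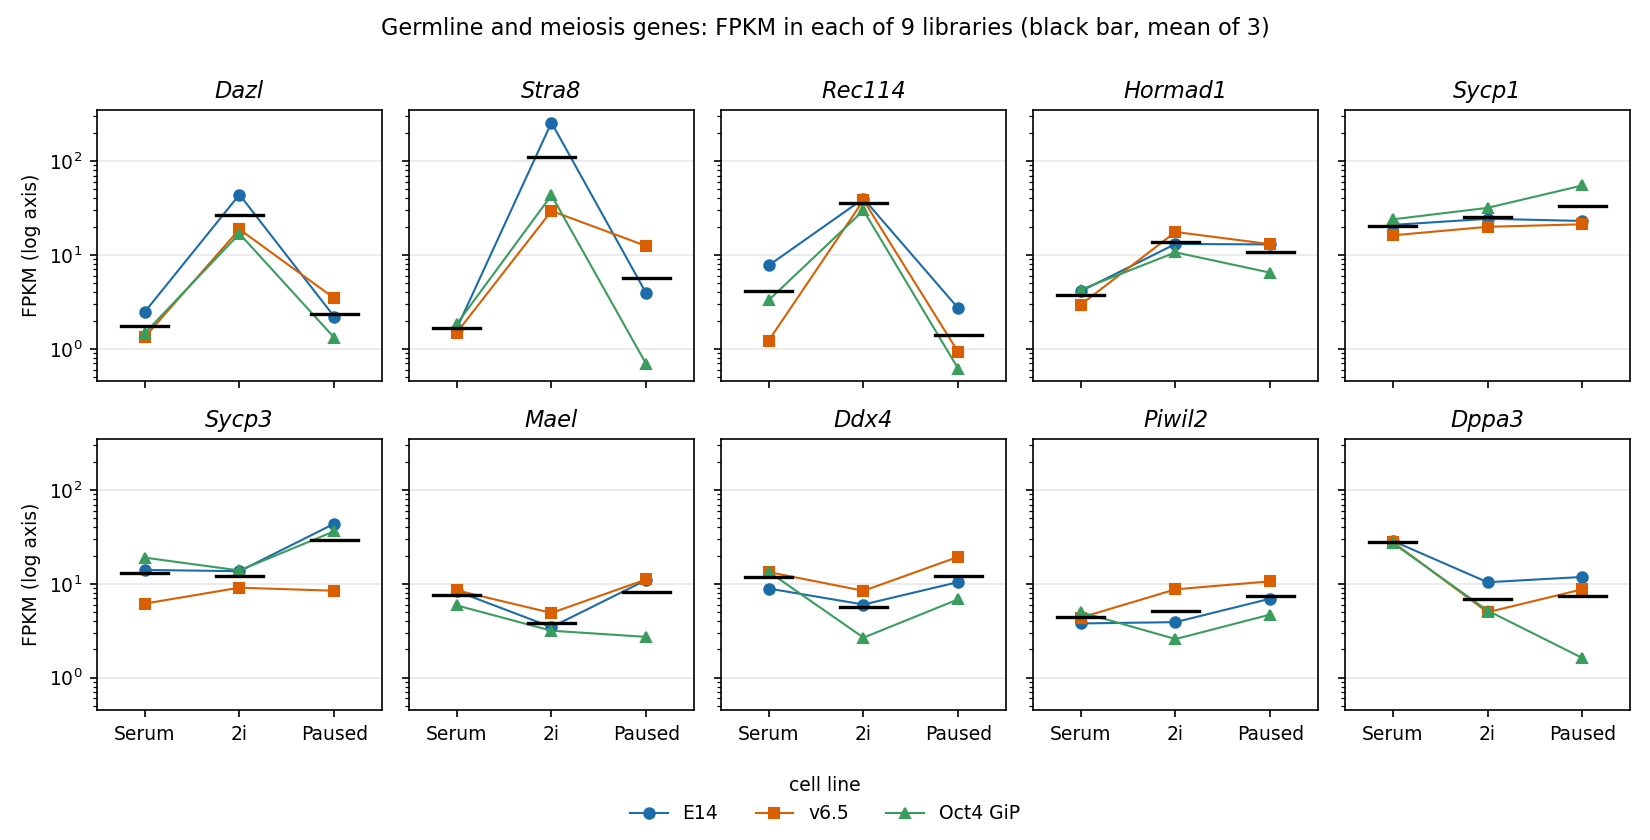
FPKM of each of the 10 genes on a log axis in the 9 libraries, by culture condition, with points joined within a cell line and a black bar at the mean of 3. Dazl, Stra8 and Rec114 peak in 2i in every line, Hormad1 is higher in 2i and Paused than in Serum, and Dppa3 is highest in Serum.

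In 2i against Serum the genes that rose were Stra8, Dazl, Rec114 and Hormad1, and Ddx4 and Dppa3 fell, so 6 of 10 were called where 40.6% of all tested genes were. By direction, 4 rose against a background of 21.7%, and 2 fell against 18.9%. In Paused against Serum, Hormad1 rose and Dppa3 fell, 2 of 10 against a background of 18.2% (7.64% higher and 10.5% lower). In Paused against 2i, Ddx4 was higher and Rec114, Stra8 and Dazl were lower, 4 of 10 against 44.4% (19.8% higher and 24.6% lower). An F test over the 3 conditions called 6 of 10, against 54.8% of all tested genes. These counts describe the 10 genes and were not tested as a set. The median log2 fold change of the 10 genes was 0.17 in 2i against Serum (0.02 over all tested genes), 0.40 in Paused against Serum (-0.01) and 0.07 in Paused against 2i (-0.03). In the authors' multiplied columns the medians of the 10 genes were -0.18 in 2i against Serum, -0.41 in Paused against Serum and -0.49 in Paused against 2i. Over all tested genes they were -0.33, -0.88 and -0.56. In Paused against Serum 0 of 10 were called higher and 4 lower there, where most tested genes were called lower, as counted further on.

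The libraries of 2 conditions did not overlap for 7 of 10 genes in 2i against Serum, where 47.9% of tested genes did not overlap in either direction. Those higher were Dazl, Stra8, Rec114 and Hormad1 (background 25.6%), and those lower were Mael, Ddx4 and Dppa3 (22.4%). Paused and Serum did not overlap for Hormad1, higher (17.3%), and Dppa3, lower (21.3%), 2 of 10 against 38.6% either way. Paused and 2i did not overlap for Dazl, Stra8 and Rec114, all lower (28.3%), and for 0 genes higher (23.6%), which is 3 of 10 against 51.9%. Each such pair has an exact permutation p of 0.1, two-sided, the smallest that 3 against 3 libraries allow.

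**Figure D2:**
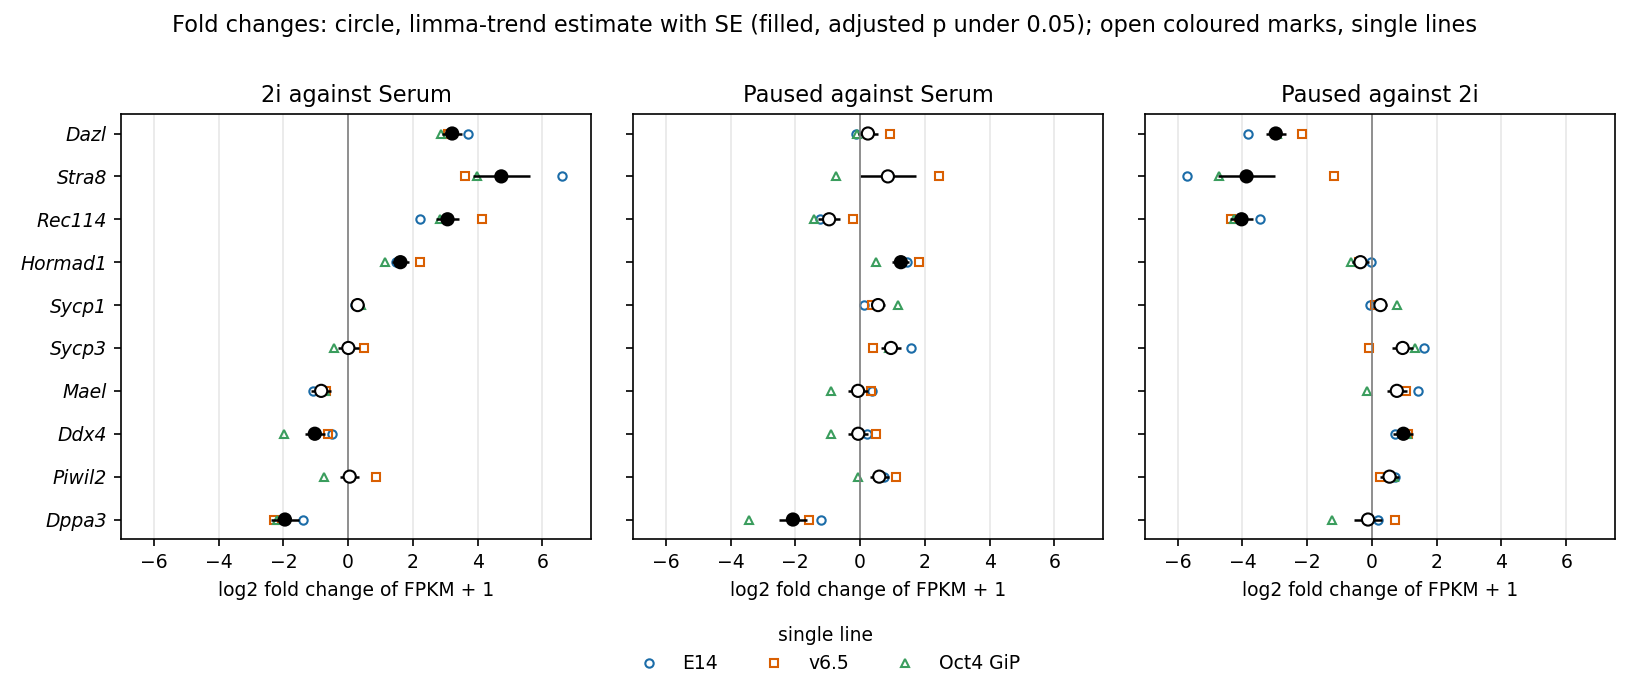
Log2 fold changes of FPKM + 1 for the 10 genes in the 3 comparisons, as the limma-trend estimate with its standard error (black circle, filled where the adjusted p is under 0.05) and the difference in each single line (open coloured marks). Dazl, Stra8 and Rec114 lie right of 0 in 2i against Serum and left of 0 in Paused against 2i in all 3 lines.

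Stra8, the gene that responds to retinoic acid and opens the meiotic programme, lies on chromosome 6 (34920163 to 34939344, plus strand, mm10). It stood at 1.64, 1.48 and 1.83 FPKM in Serum and at 257, 29.5 and 43.3 FPKM in 2i. In Paused it stood at 3.89, 12.4 and 0.685 FPKM. All 3 libraries of 2i lay above the other 6, and within 2i E14 stood 8.74 times above v6.5. Paused was higher than Serum in E14 and v6.5 and lower in Oct4 GiP. Mean FPKM was 66.8 times higher in 2i than in Serum and 19.4 times higher in 2i than in Paused. Without the E14 library of 2i these ratios were 22.1 and 6.42, and without the v6.5 library of Paused the second was 48.2. The rise in 2i, 4.73 ± 0.87 (adjusted p = 0.00795), held without any single library and was lost without all 3 Oct4 GiP libraries (0.060). The Paused and 2i difference was -3.87 ± 0.87 (limma-trend, adjusted p = 0.0136), and the Paused and Serum difference was 0.86 ± 0.87 (adjusted p = 0.515), with an interval from -1.24 to 2.96. The call for Paused against 2i was lost without the Oct4 GiP library of 2i (adjusted p = 0.051) and without the E14 or the Oct4 GiP library of Paused (0.063 and 0.060). In E14 under 2i Stra8 stood above 98.2% of all named rows, and in Serum above 53.1% to 54.9% of them.

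Dazl, on chromosome 17 (50279395 to 50293636, minus strand), encodes the RNA-binding protein needed for germ cell development. Its values were 2.46, 1.33 and 1.46 FPKM in Serum, 44.0, 18.8 and 16.8 FPKM in 2i and 2.20, 3.46 and 1.31 FPKM in Paused. The 2i libraries lay above all others, and those of Serum and Paused overlapped. Mean FPKM was 15.2 times higher in 2i than in Serum (adjusted p = 0.00145) and 11.4 times higher in 2i than in Paused, a log2 difference of -2.97 ± 0.31 for Paused (limma-trend, adjusted p = 0.00121). Both calls held without any single library. Paused against Serum gave 0.24 ± 0.31 (adjusted p = 0.60, interval -0.49 to 0.98), which became -0.47 in the authors' multiplied columns. In single lines that difference was -0.11, 0.94 and -0.09, so the positive estimate came from v6.5.

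Rec114, on chromosome 9 (58652850 to 58743964, minus strand), encodes a partner of the proteins that bring about meiotic DNA breaks. It stood at 7.72, 1.22 and 3.29 FPKM in Serum and at 39.8, 38.3 and 29.8 FPKM in 2i. Its Paused values were 2.70, 0.918 and 0.611 FPKM. The 2i libraries lay within 1.33-fold of each other and above all others, while in Serum E14 stood 6.32 times above v6.5. The log2 fold change was 3.07 ± 0.35 for 2i against Serum (limma-trend, adjusted p = 0.00189) and -4.03 ± 0.35 for Paused against 2i (adjusted p = 0.000745), and both held without any single library. Mean FPKM was 25.5 times higher in 2i than in Paused, and 47.1 times without the E14 library of Paused. Paused was below Serum in all 3 lines, at -1.24, -0.21 and -1.41, yet the test gave -0.95 ± 0.35 with an adjusted p of 0.101. That difference was called in the authors' multiplied columns (-1.94, adjusted p = 0.0027) and without the v6.5 library of Serum (adjusted p = 0.043).

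An exon of Rec114 shares 344 bases with Nptn, a gene on the opposite strand that encodes the adhesion protein neuroplastin. The library kit was directional, but no source used here says whether fragments were counted by strand, so reads of the pair may not be separable. Nptn stood at 26.4 ± 1.70, 35.4 ± 2.43 and 18.4 ± 0.755 FPKM in Serum, 2i and Paused (SD, n = 3). Its log2 fold changes were 0.41 for 2i against Serum, -0.50 for Paused against Serum and -0.91 for Paused against 2i, all called and with the signs of the Rec114 estimates. Its part in the Rec114 values was not tested.

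Hormad1, on chromosome 3 (95559677 to 95587671, plus strand), encodes a protein of unsynapsed chromosome axes. Its values were 4.10, 2.95 and 4.26 FPKM in Serum, 13.1, 17.6 and 10.7 FPKM in 2i and 12.9, 13.0 and 6.47 FPKM in Paused. Every library of 2i and of Paused lay above every library of Serum. It was the 1 gene of the 10 called higher in both comparisons with Serum, which share the Serum libraries. The log2 fold change was 1.62 ± 0.26 for 2i (limma-trend, adjusted p = 0.00515), held without any single library, and 1.26 ± 0.26 for Paused (adjusted p = 0.026). The second call was lost without any 1 of the 6 Serum and Paused libraries (adjusted p from 0.059 to 0.11), and in the authors' multiplied columns the difference was 0.50 (adjusted p = 0.11). Paused against 2i gave -0.36 ± 0.26 (adjusted p = 0.302), with an interval from -0.98 to 0.27.

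Sycp1, the transverse filament protein of the synaptonemal complex, lies on chromosome 3 (102818499 to 102936100, minus strand). It stood at 20.9, 16.2 and 24.0 FPKM in Serum, 24.3, 19.9 and 31.8 FPKM in 2i and 23.0, 21.2 and 55.0 FPKM in Paused. The 3 conditions overlapped, with the highest value in the Oct4 GiP library of Paused. No comparison was called, with 0.30 ± 0.20 for 2i against Serum (limma-trend, adjusted p = 0.274; -0.06 in the authors' multiplied columns) and 0.56 ± 0.20 for Paused against Serum (adjusted p = 0.0978; -0.35 in those columns). Sycp1-ps1, a processed pseudogene, averaged 0.0368 to 0.107 FPKM in the 3 conditions.

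Sycp3, a protein of the lateral elements, lies on chromosome 10 (88459569 to 88473236, plus strand). Its values were 14.1, 6.15 and 19.0 FPKM in Serum, 13.6, 9.10 and 13.9 FPKM in 2i and 43.8, 8.45 and 36.3 FPKM in Paused. In Paused the E14 and Oct4 GiP libraries lay above all Serum and 2i libraries, and v6.5 lay among the lowest. The log2 fold change was 0.96 ± 0.32 for Paused against Serum (limma-trend, adjusted p = 0.083) and 0.95 ± 0.32 for Paused against 2i (adjusted p = 0.0519), neither called. Paused against 2i was called without the v6.5 library of Paused (1.35, adjusted p = 0.015) or of 2i (1.33, adjusted p = 0.014), and Paused against Serum without the latter (adjusted p = 0.039). Sycp3 shares 660 exon bases with Chpt1, a gene of phospholipid synthesis on the opposite strand. Chpt1 stood at 5.25 ± 1.29, 12.8 ± 1.70 and 4.13 ± 1.05 FPKM in Serum, 2i and Paused (SD, n = 3), highest in 2i, where Sycp3 was not, and its part was not tested.

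Ddx4, the germ cell RNA helicase also called Vasa, lies on chromosome 13 (112598333 to 112652475, minus strand). It stood at 8.91, 13.4 and 13.5 FPKM in Serum, 6.02, 8.43 and 2.67 FPKM in 2i and 10.5, 19.4 and 6.85 FPKM in Paused. Every 2i library lay below every Serum library, and within each line 2i was the lowest condition. The log2 fold change was -1.03 ± 0.31 for 2i against Serum (limma-trend, adjusted p = 0.0381) and 0.97 ± 0.31 for Paused against 2i (adjusted p = 0.0425). Without the line block the adjusted p-values were 0.094 and 0.10. The first call was lost without the v6.5 or the Oct4 GiP library of 2i or any Paused library (adjusted p from 0.053 to 0.14), and the second without the same 5 libraries (0.067 to 0.15). Paused against Serum was -0.06 ± 0.31 (adjusted p = 0.914) and -0.96 in the authors' multiplied columns (adjusted p = 0.032).

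Mael, the gene of a germ granule protein named maelstrom, lies on chromosome 1 (166201201 to 166238747, minus strand). Its values were 8.36, 8.53 and 5.89 FPKM in Serum, 3.46, 4.90 and 3.17 FPKM in 2i and 10.99, 11.2 and 2.72 FPKM in Paused. The 2i libraries all lay below those of Serum, yet the difference of -0.83 ± 0.31 was not called (limma-trend, adjusted p = 0.0715). Without the Oct4 GiP library of Paused it was called at the same size (adjusted p = 0.0096). Oct4 GiP stood apart in Paused, at 2.72 FPKM against 10.99 and 11.2. Leaving it out also gave 1.21 for Paused against 2i (adjusted p = 0.0076), against 0.77 ± 0.31 with it (adjusted p = 0.0841).

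Piwil2, an Argonaute protein that binds piRNAs, lies on chromosome 14 (70372477 to 70429383, minus strand). It stood at 3.78, 4.36 and 5.00 FPKM in Serum, 3.91, 8.74 and 2.58 FPKM in 2i and 6.95, 10.6 and 4.71 FPKM in Paused. No comparison was called, and all 3 conditions overlapped. Paused against Serum was 0.59 ± 0.29 (limma-trend, adjusted p = 0.188) and -0.22 in the authors' multiplied columns. In 2i and in Paused v6.5 was the highest line and Oct4 GiP the lowest.

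Dppa3, on chromosome 6 (122626410 to 122630272, plus strand), is expressed in naive ES cells as well as in germ cells and eggs. It stood at 28.7, 27.97 and 27.3 FPKM in Serum, the closest agreement between lines of the 10 genes in any condition. Its values were 10.4, 4.98 and 5.19 FPKM in 2i and 11.8, 8.74 and 1.62 FPKM in Paused. Both conditions lay below Serum in every line, and they overlapped each other. For 2i against Serum the log2 fold change was -1.95 ± 0.44 (limma-trend, adjusted p = 0.0151), lost without the Oct4 GiP library of Serum (0.060) or the v6.5 library of 2i (0.054). For Paused against Serum it was -2.07 ± 0.44 (adjusted p = 0.0274), lost with no filter on low values (0.052) and without the v6.5 or Oct4 GiP library of Serum or any Paused library (adjusted p from 0.057 to 0.11). Paused against 2i was -0.12 ± 0.44 (adjusted p = 0.841), with an interval from -1.18 to 0.93, and E14, v6.5 and Oct4 GiP gave 0.17, 0.70 and -1.24.

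FPKM is per length, so levels can be set beside each other between genes. In Serum the order of mean levels began with Dppa3 at 28 ± 0.695, Sycp1 at 20.3 ± 3.92, Sycp3 at 13.1 ± 6.5 and Ddx4 at 11.9 ± 2.6 FPKM (SD, n = 3). Mael at 7.60 ± 1.48, Piwil2 at 4.38 ± 0.610, Rec114 at 4.08 ± 3.32 and Hormad1 at 3.77 ± 0.718 FPKM followed. Dazl at 1.75 ± 0.619 and Stra8 at 1.65 ± 0.174 FPKM came last. Apart from Dppa3 against Sycp1, neighbours in this order overlapped between libraries or stood within their spread, except that Ddx4 lay above Mael and Mael above Piwil2 in every library, and Hormad1 above Dazl. In 2i Stra8 at 110.1 ± 128, Rec114 at 36.0 ± 5.39, Dazl at 26.5 ± 15.2 and Sycp1 at 25.3 ± 5.97 FPKM led, overlapping each other, and Mael was lowest at 3.84 ± 0.927. In Paused Sycp1 at 33.1 ± 19.0 and Sycp3 at 29.5 ± 18.6 FPKM led, and Dazl at 2.32 ± 1.08 and Rec114 at 1.41 ± 1.13 came last.

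The lines differed from each other most in Paused. The highest and lowest of the 3 libraries differed by 1 or more in log2(FPKM + 1) for 8 of 10 genes in Paused, where this held for 8.23% of all tested genes. It held for 4 of 10 in 2i (9.85% of all) and for 2 of 10 in Serum (10.0% of all). The median range was 1.36 in Paused against 0.30 over all tested genes, 0.80 against 0.37 in 2i and 0.50 against 0.34 in Serum. In Paused Oct4 GiP was the lowest line for 8 of 10 genes, all but Sycp1 and Sycp3, which were lowest in v6.5. v6.5 was the highest line for 6, E14 for 3 and Oct4 GiP for Sycp1 alone. The gap between lines was 18.2-fold for Stra8, 7.31-fold for Dppa3, 5.19-fold for Sycp3, 4.42-fold for Rec114 and 4.10-fold for Mael. With 1 library per line and condition, a line and a single culture cannot be told apart.

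**Figure D3:**
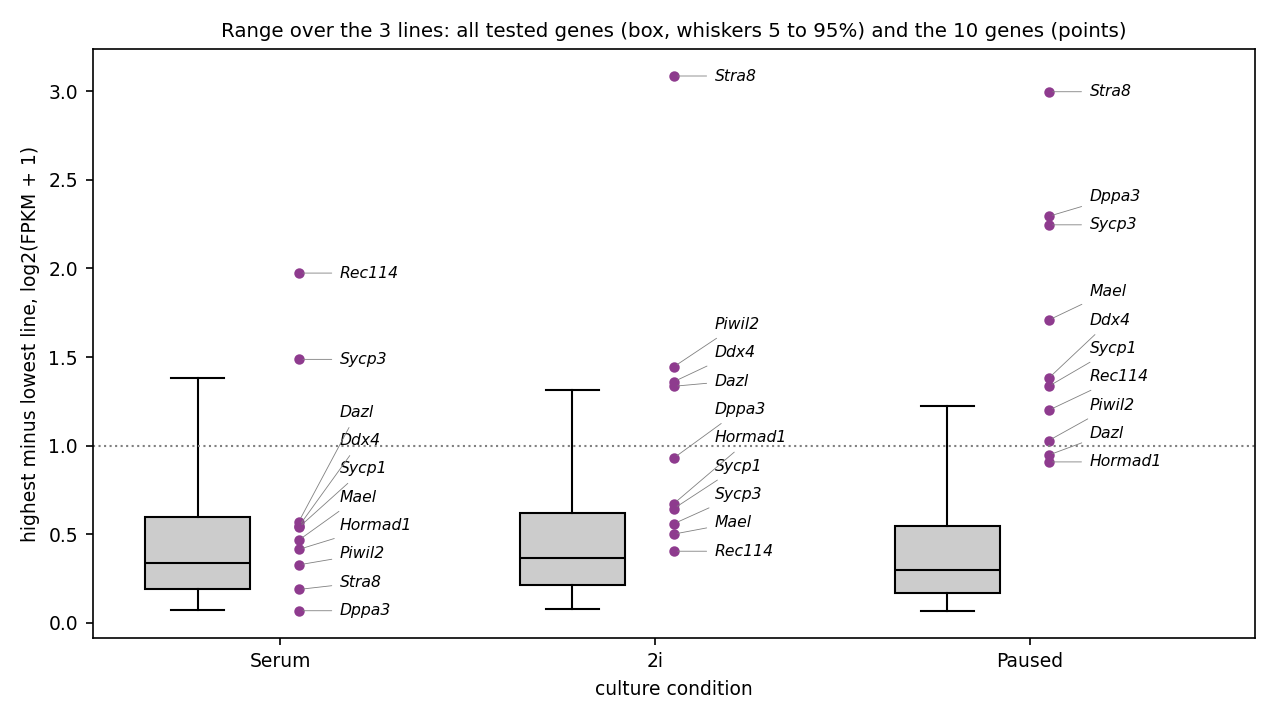
Difference between the highest and the lowest of the 3 lines in log2(FPKM + 1), in each condition, for all 12711 tested genes (box, quartiles, with whiskers at 5 and 95%) and for the 10 genes (points). In Paused 8 of the 10 points lie above the dotted line at 1, and 2 do so in Serum.

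Genes of the same pathways, other than the 10, were read from lists that were chosen with earlier results of these data known, and their counts are descriptions. In Paused against Serum, 0 calls in any of these 9 lists held through the removal of each single library in turn. Over all tested genes 10 of 2311 calls did, so this is no trait of the lists. Each named call was lost without the Oct4 GiP library of Serum, the E14 library of Paused or the Oct4 GiP library of Paused. In that comparison 0 genes of any list were called higher in the authors' multiplied columns. Few of all tested genes were called higher there, as counted further on, so this is no trait of the lists. Of 4 tested genes of meiotic entry, the cohesin gene Rec8, which responds to retinoic acid in germ cells, rose in 2i (0.74 ± 0.20). This call was lost without the E14 or Oct4 GiP library of Serum or the v6.5 or Oct4 GiP library of 2i. Rec8 stood at 6.58, 11.6 and 3.99 FPKM on average in Serum, 2i and Paused, and was lower in Paused than in 2i (-1.34 ± 0.20, limma-trend, adjusted p = 0.0035). The other 3 were not called in any comparison. The list median was 0.01 for 2i against Serum, -0.25 for Paused against Serum and -0.07 for Paused against 2i, against 0.02, -0.01 and -0.03 over all tested genes.

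Of 9 tested genes of chromosome axes and the synaptonemal complex, 2 rose and 2 fell in 2i against Serum. Hormad2, the relative of Hormad1, rose by 0.93 ± 0.23, a call lost without the line block (limma-trend, adjusted p = 0.080) or without the E14 or v6.5 library of Serum or of 2i, and Rec8 was the other. The central element genes Syce2 and 4930447C04Rik, the latter also called Six6os1, fell by 0.96 and 1.07. Paused against Serum had 2 rises and 0 falls, the cohesin gene Stag3, at 0.96 ± 0.21, and 4930447C04Rik, at 0.66 ± 0.18, which was lost without the line block (0.077). In the authors' multiplied columns the differences were 0.11 and -0.23. Relative to 2i, 2 rose in Paused (4930447C04Rik by 1.73 ± 0.18, and Syce2) and 2 fell (Rec8, and Hormad2 by 1.29). Medians of the list were 0.22, -0.02 and 0.41.

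Of 9 tested genes of meiotic recombination, 2 rose and 1 fell in 2i against Serum. Mnd1, a partner in strand exchange, fell by 1.11, and Tex11 (0.57 ± 0.16) and Tex15 (0.43 ± 0.14) rose, both lost without the line block (0.18 and 0.54), where 0 rose and 1 fell. Tex11 was also lost without 6 of the 9 libraries and Tex15 without any 1 of the 9. The helicase gene Hfm1 rose in Paused against Serum (0.51 ± 0.13, 0.09 in the authors' multiplied columns), from under 1 FPKM in every Serum library. It was also under 1 FPKM in every 2i library. Hfm1 thus passed the filter only through Paused, the group where it was called higher, so its calls are descriptions only. Between Paused and 2i, 3 rose and 1 fell, with Mnd1 at 1.06 ± 0.11, Dmc1, the meiotic recombinase, at 0.63 ± 0.17 (0.27 without the line block) and Hfm1 at 0.56 ± 0.13. Dmc1 was lost without the E14 or Oct4 GiP library of 2i or of Paused, and Hfm1 without the E14 library of Paused. A further 7 genes of that list were not tested for low values, and Spo11, which cuts the DNA in meiosis, stood at 0.0818 FPKM or less in every library. Medians were -0.06, -0.01 and -0.13.

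The piRNA and germ granule list had 12 tested genes, of which 3 rose and 6 fell in 2i against Serum, 0 rose and 1 fell in Paused against Serum, and 6 rose and 3 fell in Paused against 2i. Gtsf1, a partner of PIWI proteins, rose in 2i from 1.98, 1.0 and 1.12 to 10.4, 4.84 and 12.5 FPKM (2.05 ± 0.23, limma-trend, adjusted p = 0.0019). Tex19.1, which guards germ cells against transposons, rose by 1.43 ± 0.24, and the helicase gene Ddx25 fell by 1.91. The 1 gene that fell in Paused against Serum was Dnd1, an RNA-binding protein gene, by 0.47, lost without the line block (0.24). Between Paused and 2i Gtsf1 and Asz1 fell by 1.54 and 1.44, and Tdrd12 was higher by 1.24 ± 0.20. Asz1 was under 1 FPKM in every Serum and Paused library. It passed the filter only through 2i, the group where it was higher, so its call is a description only. Medians were -0.54, -0.04 and 0.34.

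Of 11 tested genes of primordial germ cell specification, 2 rose and 2 fell in 2i against Serum. Kit, a receptor of germ cell precursors, rose from 28.1, 3.54 and 13.5 to 123, 65.1 and 91.9 FPKM (2.88 ± 0.35). Prdm14, a factor that starts the germ cell fate and keeps ES cells naive, averaged 5.93, 22.9 and 8.04 FPKM in Serum, 2i and Paused and rose by 2.15 ± 0.51 in 2i, lost without the v6.5 or Oct4 GiP library of Serum. Ifitm1, a surface protein gene of early germ cells, fell by 1.68, lost without the line block (0.086) or without the E14 or v6.5 library of Serum or the Oct4 GiP library of 2i. Between Paused and Serum, 0 rose and 3 fell, namely Tfap2c by 0.95, Ifitm3 by 0.66 and Dnd1, and all 3 were lost without the line block (0.30, 0.22 and 0.24). Prdm1, also called Blimp1, averaged 2.6, 1.75 and 7.59 FPKM. In Paused against 2i, 3 rose and 4 fell, with Kit at -2.91 ± 0.35, Ifitm1 at 1.86 ± 0.43 (0.057 without the line block) and Prdm14 at -1.60 ± 0.51 (0.11 without it). Here Prdm14 was lost without 6 of the 9 libraries, and Ifitm1 without the E14 or Oct4 GiP library of Paused. Without the line block 1 rose and 1 fell. Medians were -0.10, 0.19 and 0.01.

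Other germline genes known for methylated promoters, as Dazl is, mostly rose in 2i. Of 11 tested genes, 7 rose and 1 fell (Dpep3, at -1.57) in 2i against Serum, where 21.7% of all tested genes rose and 18.9% fell. The median was 0.97 against 0.02 over all tested genes. In Paused against 2i, 1 rose and 7 fell (19.8% and 24.6% of all), with a median of -1.14 against -0.03. Of 16 genes found, 11 averaged 1 FPKM or more in 2i, and 9 did in Serum and 9 in Paused. Some may thus have passed the filter only through 2i, the group where they were higher, so these counts and medians are descriptions only. For Paused against Serum, 0 rose and 1 fell, with a median of 0.15. Fkbp6, a chaperone gene of spermatocytes, rose in 2i from 4.12, 3.01 and 5.52 to 51.4, 38.0 and 21.3 FPKM (2.80 ± 0.39, limma-trend, adjusted p = 0.0033). The testis tubulin genes Tuba3a and Tuba3b rose by 3.15 ± 0.33 and 2.79 ± 0.21 and fell by 3.02 and 2.79 in Paused against 2i, and as near-identical copies they are uncertain singly. The X-linked Rhox5 was the gene that fell in Paused against Serum, by 2.63, lost without the line block (0.16), and it fell by 4.28 against 2i. Without the line block 4 rose and 1 fell in 2i against Serum, and 1 rose and 5 fell in Paused against 2i. Both comparisons share the 2i libraries.

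**Figure D4:**
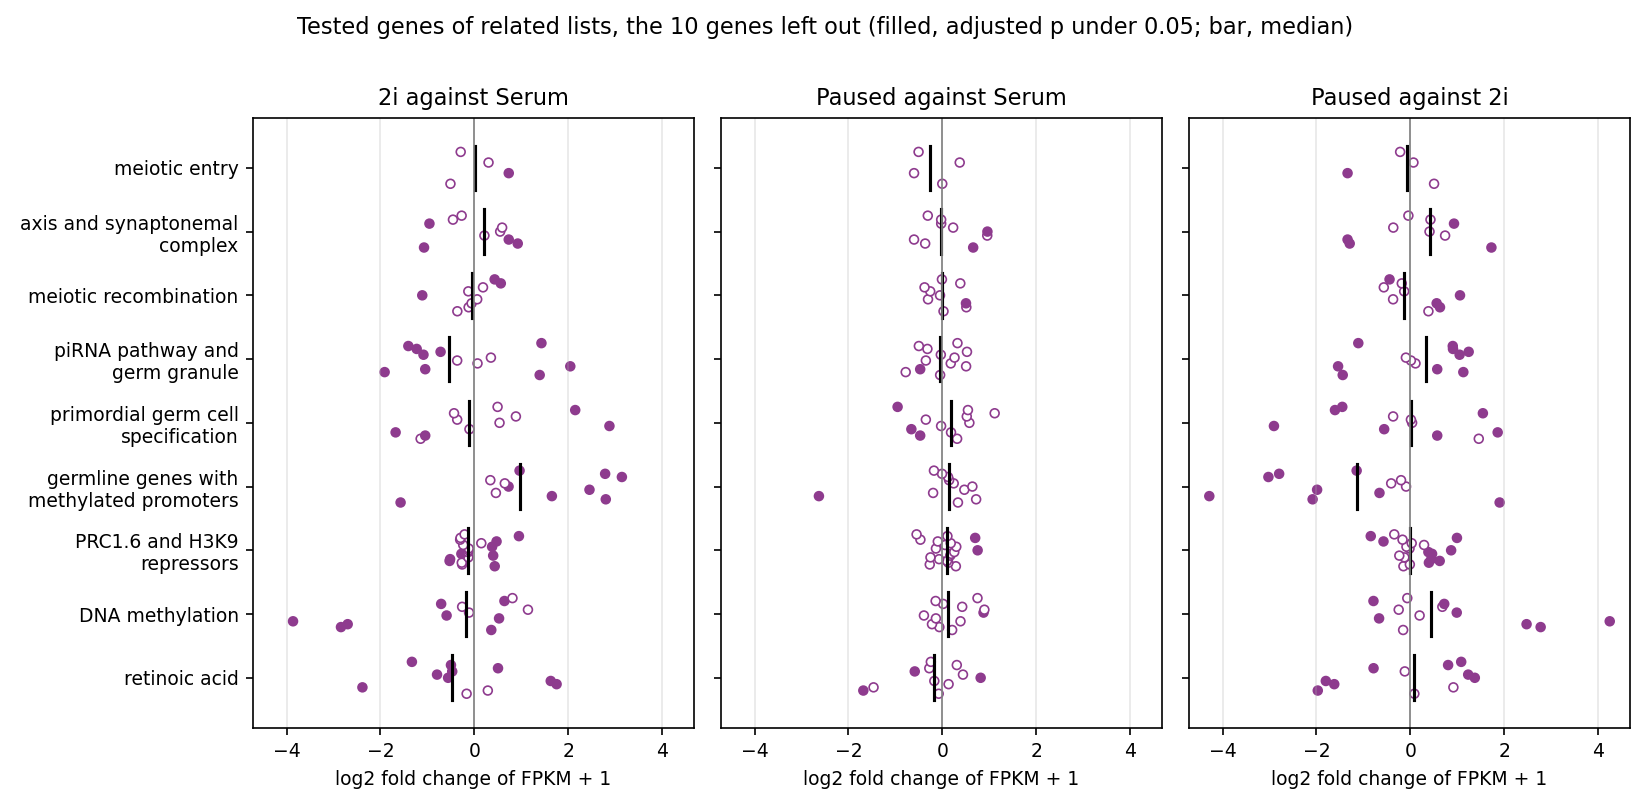
Log2 fold changes of FPKM + 1 for the tested genes of 9 related lists, the 10 genes left out, in the 3 comparisons, with filled points for an adjusted p under 0.05 and a bar at the list median. Germline genes with methylated promoters have a median of 0.97 in 2i against Serum and -1.14 in Paused against 2i, and 3 DNA methylation genes stand far to the left in 2i against Serum. Some of these germline genes may have passed the filter only through 2i.

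Levels of the genes that write and read DNA methylation were set beside these values. In 2i against Serum, 3 of 12 rose and 5 fell, with the de novo methyltransferase genes Dnmt3a and Dnmt3b and their cofactor Dnmt3l at -2.84 ± 0.69, -2.70 ± 0.35 and -3.86 ± 0.29. The Dnmt3a call was lost without the v6.5 or Oct4 GiP library of Serum. Dnmt3a averaged 128, 14.9 and 121 FPKM in Serum, 2i and Paused, Dnmt3b 197, 29.0 and 153 FPKM, and Dnmt3l 361, 28.4 and 520.4 FPKM. Of the maintenance genes, Dnmt1 averaged 96.6, 125 and 113 FPKM, and Uhrf1 157, 249 and 143 FPKM. Relative to 2i, 5 genes rose in Paused and 2 fell, with Dnmt3l at 4.25 ± 0.29, Dnmt3b at 2.48 ± 0.35 and Dnmt3a at 2.78 ± 0.69, the last lost without the E14 or v6.5 library of Paused. Relative to Serum, 1 gene rose in Paused and 0 fell, namely Tet1, an enzyme that oxidises methylcytosine (0.88 ± 0.17, -0.04 in the authors' multiplied columns). Medians were -0.18, 0.44 and 0.11 for 2i against Serum, Paused against 2i and Paused against Serum. The part of these levels in those of Dazl, Stra8 and Rec114 was not tested.

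Of 19 tested genes for the E-box and E2F repressor complex and for H3K9 methylation, 5 rose and 3 fell in 2i against Serum. Wdr5, a scaffold protein gene, rose by 0.95 ± 0.12, and the histone methyltransferase genes Ehmt1 and Ehmt2 fell by 0.53 and 0.51, Ehmt1 being lost without the v6.5 or Oct4 GiP library of Serum or of 2i. Max averaged 44.1, 40.3 and 52.9 FPKM in Serum, 2i and Paused, Pcgf6 34.01, 31.4 and 30.8 FPKM and E2f6 15.8, 13.0 and 17.5 FPKM. In Paused against Serum, 2 rose and 0 fell. Mga, the E-box partner of Max, averaged 14.9 FPKM in Serum and 25.8 FPKM in Paused (0.75 ± 0.09), and Tfdp2, a dimer partner of E2F proteins, rose by 0.70 ± 0.13. In the authors' multiplied columns the differences were -0.14 and -0.17. Relative to 2i, 7 genes rose in Paused and 2 fell, with Tfdp2 at 0.99 ± 0.13, Mga at 0.87 ± 0.09 and Wdr5 at -0.84 ± 0.12. Medians were -0.13, 0.11 and -0.01.

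Retinoic acid, the signal that induces Stra8 in germ cells, was followed through 11 tested genes. In 2i against Serum, 3 rose and 6 fell. Dhrs3, which turns retinal back to retinol, rose by 1.75 ± 0.26, while the binding protein gene Crabp2 fell by 2.38, lost without the v6.5 or Oct4 GiP library of Serum. Cyp26a1, the retinoic acid-degrading enzyme gene and a strong target, was not tested for low values and averaged 1.65, 0.18 and 0.31 FPKM in Serum, 2i and Paused. Relative to Serum, 1 gene rose in Paused and 2 fell, namely the receptor gene Rara at 0.82 ± 0.15 (-0.10 in the authors' multiplied columns), Crabp1 at -1.68 ± 0.19 and Rdh10, of retinal synthesis, at -0.59 ± 0.12. Relative to 2i, 4 genes rose in Paused and 4 fell, with Crabp1 and Dhrs3 at -1.97 ± 0.19 and -1.62 ± 0.26. Medians were -0.47, -0.17 and 0.09.

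Markers of cell types show what else the libraries could hold. All 14 ES cell markers were above 1 FPKM in some library, with Pou5f1 at 1435, 1152 and 1596 FPKM on average in Serum, 2i and Paused and Nanog at 156, 361 and 144 FPKM. Of 15 markers of late male germ cells 14 stayed under 1 FPKM in all libraries and 2 were listed at 0 in all, with a summed level of 0.930 to 2.97 FPKM in Serum, 2.25 to 4.45 in 2i and 1.12 to 1.83 in Paused. Of 16 oocyte markers 11 stayed under 1 FPKM and 1 was at 0 in all. Their sum ran from 36.3 to 93.6 FPKM in Serum, 59.3 to 107 in 2i and 74.4 to 100.1 in Paused. The spermatogonia markers, 12 of 14 at 1 FPKM or more in some library, are largely also genes of ES cells, and their sum ran from 652 to 882, 489 to 825 and 667 to 825 FPKM. Sums of the other lists varied between libraries. In each list the ranges of at least some conditions overlapped, and the sums were not tested. Feeder fibroblast markers summed to 83.4 to 279.9 FPKM in Serum, 53.6 to 284 in 2i and 36.0 to 53.7 in Paused, and 5 of 10 stayed under 1 FPKM. Trophoblast markers summed to 67.5 to 326, 50.03 to 75.3 and 29.3 to 51.5 FPKM, and markers of cells resembling the early cleavage-stage embryo to 28.02 to 190, 5.14 to 33.6 and 23.6 to 47.2 FPKM. Endoderm markers summed to 132 to 179, 109.5 to 221 and 79.4 to 121 FPKM. The part of such cells in the levels of the 10 genes was not tested.

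Among the 10 genes, Dazl and Stra8 had the closest profiles over the 9 libraries, with a Pearson r of 0.967 in log2(FPKM + 1), followed by Dazl with Rec114 at 0.907 and Stra8 with Rec114 at 0.802. Mael and Ddx4 stood at 0.774, and the lowest of the 45 pairs was Sycp1 with Dppa3 at -0.749. Of 11307 tested genes compared, the profile most like that of Dazl was of Pttg1ip (0.988), before Dlg5 and Mul1. For Stra8 it was Rgma (0.987), then Samd8 and Ormdl3, and for Rec114 Zc3hav1 (0.996), then Hk1 and Sh3bp1. Above an r of 0.95 there were 164 genes for Rec114, 138 for Dazl and 25 for Stra8. The others had few such genes, and their closest were Phf12 for Hormad1, Hist1h4n for Ddx4, Ctbs for Sycp3, Ift20 for Dppa3, Creb3l1 for Mael, Sh3gl3 for Piwil2 and Prune for Sycp1. The 9 points share 3 lines and 3 conditions, so these correlations describe the profiles only.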

How the data were processed

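RNA was sequenced from 9 libraries of mouse ES cells. The authors deposited 1 table with FPKM values and a second set of columns, a normalized signal equal to FPKM times 1 constant per library. Cuffnorm and mm10 are named, per the submitters' processing notes. The aligner, the annotation, strand counting and the origin of the constants are, in the sources used here, not given. Rows without a gene name (5644, 18.9%), which held 52.8% to 64.0% of the summed FPKM, were left out. An exact 0 may be a failed estimate, since Eef1a1 was listed at 0 in all 9 libraries.

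The members and lists were chosen with earlier results of these data known. Genes that reached an FPKM of 1 in 3 or more libraries were tested as log2(FPKM + 1), pseudocount 1, with limma 3.58.1 (trend, R 4.3.3) and Benjamini-Hochberg adjustment, over all 9 libraries with the line as a block. Same-line libraries shared a parent line, and their deviations correlated at -0.0008 to 0.401, against -0.243 to 0.0938 for different lines. The rule for named genes took all 10 members, from each list up to 3 called genes with the largest changes per comparison, a panel of 16 regulators and markers, and the 3 genes most alike to each member. Syce2 in Paused against 2i, Dpep3 and Spo11 were chosen after their values were seen, and the overlapping Nptn and Chpt1 by position. One gene that the rule names is not reported here. Symbols on several rows were read from the row of highest mean. The scripts (Python 3.11.15, pandas 2.3.3, matplotlib 3.10.9) were tested on simulated data. Alternatives were no block, no filter, other pseudocounts, centring, the authors' columns, only the libraries compared, and leaving out each library and each line.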

Additional observations from a re-analysis of the deposited data

Results flagged for a closer look

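Some differences had opposite signs in different lines, by more than 0.5 in log2(FPKM + 1) each way, and with 1 library per line and condition the difference between lines was not tested. Stra8 in Paused against Serum stood at 0.89 in E14 and 2.44 in v6.5 and at -0.75 in Oct4 GiP. Ddx4 in Paused against Serum was 0.51 in v6.5 and -0.88 in Oct4 GiP. Piwil2 in 2i against Serum was 0.86 in v6.5 and -0.75 in Oct4 GiP. Dppa3 in Paused against 2i was 0.70 in v6.5 and -1.24 in Oct4 GiP. In all 4 cases v6.5 was positive and Oct4 GiP negative.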

How the results depend on the processing

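With 3 lines and no read counts, small differences cannot be resolved, and the scale of the FPKM and of the multiplied columns rests on steps not given in the sources used here. Of the 10 genes, the rises of Dazl, Stra8, Rec114 and Hormad1 in 2i against Serum and the lower Dazl and Rec114 in Paused against 2i held without any single library. Over all tested genes 2599 of 5161 calls held so in 2i against Serum and 3105 of 5638 in Paused against 2i. In Paused against Serum, where the calls of Hormad1 and Dppa3 did not hold, 10 of 2311 did. Without the replicate block, 4368 genes were called in 2i against Serum, 4797 in Paused against 2i and 1602 in Paused against Serum, with 5, 3 and 2 of the 10 genes, and it changed among the 10 only the calls of Ddx4.

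Leaving out 1 library or the 3 of a line, the genes called ran from 1269 to 5436 in 2i against Serum, 2073 to 5611 in Paused against 2i and 4 to 3223 in Paused against Serum, and from 1243 to 7131 in the F test. Of the 10 genes, 4 to 6, 2 to 4 and 0 to 3 were called, and 3 to 6 in the F test. Only the 6 libraries compared gave 2985 genes in 2i against Serum. The authors' multiplied columns gave 9827 genes in Paused against Serum (48 higher, 9779 lower) and 10894 in the F test, with 4 of the 10 genes in Paused against Serum, and no filter gave 1 of the 10 there. The cause was not tested.

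Signs that turned belonged to differences not called. In the authors' multiplied columns, in 2i against Serum, Piwil2 was -0.31, Sycp1 -0.060 and Sycp3 -0.34. Sycp1 was -0.29 in Paused against 2i, and Dazl, Piwil2 and Sycp1 were -0.47, -0.22 and -0.35 in Paused against Serum. With each library centred on its median gene, Piwil2 was -0.059 and Sycp3 -0.10 in 2i against Serum. Leaving libraries out, Piwil2 ran from -0.35 to 0.45 and Sycp3 from -0.37 to 0.23 in 2i against Serum. In Paused against 2i Dppa3 ran from -0.53 to 0.50 and Sycp1 from -0.018 to 0.45. In Paused against Serum Dazl ran from -0.13 to 0.55, Ddx4 from -0.34 to 0.39, Mael from -0.33 to 0.38 and Stra8 from -0.21 to 1.66.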

Other observations

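Among the cell type markers, the largest called log2 fold changes of each list are given as values. In 2i against Serum the pluripotency genes Lin28a and Utf1 stood at -3.66 and -2.25 and Tfcp2l1 at 2.57, and Sohlh2, a factor of spermatogonia, at 2.46 (-1.99 in Paused against 2i). The fibroblast markers Tagln, Acta2 and Col1a1 stood at -4.75, -1.47 and -1.43, the trophoblast keratins Krt18, Krt8 and Krt7 at -3.49, -2.55 and -1.09, and the endoderm markers Lamb1, Col4a1 and Gata4 at -2.28, -1.39 and 0.40. Zscan4b, of early cleavage-stage embryos, stood at -2.31 and the sperm lactate dehydrogenase gene Ldhc at 0.62.

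In Paused against Serum the values were -3.14, -2.31 and -1.18 for Krt8, Krt18 and Krt7, -3.08, -1.76 and -1.23 for Tagln, Col1a1 and Acta2, -1.45 for Col4a1, 0.64 for Tdgf1, a surface protein gene of ES cells, and 0.82 for Ooep, an oocyte gene. In the authors' multiplied columns Tdgf1 stood at -0.30 and Ooep at -0.09. The calls of Krt18, Tdgf1 and Ooep were lost without the line block (limma-trend, adjusted p = 0.064, 0.068 and 0.083). Paused against 2i gave 3.85, 2.02 and -2.06 for Lin28a, Utf1 and Tfcp2l1, 2.55 and -1.41 for Lamb1 and Sparc, -1.86 and 1.67 for Vim and Tagln, -1.45 and -1.36 for Tfap2c and Eomes, -1.17 for Ldhc, and 0.69 and -0.71 for Ooep and Zp3. Of the list genes named, 15 of 40 calls in 2i against Serum, 12 of 37 in Paused against 2i and 22 of 22 in Paused against Serum were lost without some single library. Over all tested genes, 10 of 2311 calls in Paused against Serum held without any single library, so such losses are general to that comparison.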
